A study of Mus musculus with 12 samples.

Results

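The transcripts of Mos and of the MAP kinase cascade that it starts were followed in mouse oocytes with and without the RNA-binding protein LSM14B. The set held 7 genes of the 24259 in the deposited table, taken by symbol for their place in the cascade: Mos, the MEK genes Map2k1 and Map2k2, the ERK1 gene Mapk3, and the RSK genes Rps6ka1, Rps6ka2 and Rps6ka3. All 7 were in the table.

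MOS is a serine/threonine kinase made almost only in germ cells. It phosphorylates MEK1 and MEK2, which in turn phosphorylate the ERK kinases, ERK1 among them, and these activate the RSK kinases. In fully grown oocytes held at the germinal vesicle (GV) stage the Mos transcript is stored, and the protein accumulates after meiosis resumes, when the poly(A) tail of the message is lengthened and it is recruited to ribosomes. The cascade then shapes the spindle and holds the egg in metaphase II until fertilization.

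The oocytes were at the GV stage and came from 3-week-old females injected with 5 IU of pregnant mare serum gonadotropin 46 h before collection. Wild-type (WT) mice were compared with Lsm14b knockout (KO) mice, homozygous for the reporter-tagged tm1a(KOMP)Mbp insertion, which is present in all cells, on a C57BL/6J background. Oocytes of both genotypes were kept in cycloheximide, which holds ribosomes on mRNA, and oocytes were pooled in large numbers for lysis. Lysates were spun through a sucrose gradient and collected as 28 fractions, of which 1 to 10 formed the ribonucleoprotein (RNP) pool, with messages that carry few or no ribosomes, and 11 to 28 the polysome pool. RNA of each pool was amplified by the Smart-seq2 procedure and sequenced, with 3 libraries for each of the 4 combinations of genotype and pool, 12 in all. Nothing in the labels says that the replicates came from separate animals or lysates, so p-values measure the spread between these libraries, which may be technical.

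Values are FPKM, which count sequenced fragments relative to transcript length and to all fragments mapped in that library. They are shares within a library, so a difference between pools is a difference in relative abundance and not in the amount of RNA recovered. In such pools of cells, fewer cells of a type and less RNA per cell cannot be told apart. From the steps between low FPKM values, the depth was estimated at 4800000 to 7870000 fragments per library, with the effective length of a transcript taken as its annotated length less 200 bases. At that depth Mos rested on an estimated 3830 to 15200 fragments per library, Mapk3 on 2040 to 7870, Map2k1 on 1490 to 5130 and Map2k2 on 90.0 to 350.0. Rps6ka1 rested on 26.5 to 160.0 fragments and Rps6ka3 on 43.8 to 231, so their values were the least precise among the members found in all libraries.

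The knocked-out gene followed the labels. Lsm14b stood at 34.6, 29.3 and 27.4 FPKM in WT RNP and at 11.3, 15.3 and 13.2 FPKM in WT polysome replicates 1 to 3. KO replicates had 0.893, 0.0627 and 0 FPKM in RNPs and 0.260, 0 and 0.0876 FPKM on polysomes, below every WT library. On the log2(FPKM + 1) scale used for all tests, which understates changes of low genes, the difference was -4.63 ± 0.35 (SE) in RNPs and -3.67 ± 0.42 on polysomes (limma, Benjamini-Hochberg adjusted p = 5.66e-05 and 0.00271). Lsm14b passed the filter on low FPKM through the WT libraries alone, so only a fall could be called.

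A single short RNA made up much of the summed FPKM of 1 library. KO polysome replicate 2 held the microRNA gene Mir300, noticed after its value was seen, at an FPKM of 170809, which was 24.5% of its summed FPKM. Since FPKM divides by length, this is not its share of the fragments. Without Mir300 its sum was 527419, and the sums of the other 11 libraries were 440127 to 539151. The main results of the polysome pool are therefore also given without this library. Pearson's r between replicates, across genes on the log2 scale, was 0.907 to 0.932 in WT RNP, 0.883 to 0.885 in WT polysome, 0.960 to 0.962 in KO RNP and 0.933 to 0.936 in KO polysome libraries, and no pair of libraries was identical. The WT polysome libraries were thus the least alike.

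The ends of the transcripts are shown because the tail of a stored message is lengthened from signals there. In the last 150 bases of the sense strand of 1 transcript a gene, the longest protein-coding one of the basic set with an annotated end (GENCODE M21), the poly(A) signal AATAAA or ATTAAA and the cytoplasmic polyadenylation element TTTTAT or TTTTAAT were searched, and the 2 motifs may share bases. Of 21764 genes, 76.7% held the poly(A) signal, 21.6% the cytoplasmic element and 17.5% both. Of the 7 members, Mos, Map2k1, Rps6ka1, Rps6ka2 and Rps6ka3 held a poly(A) signal and only Rps6ka2 a cytoplasmic element in these spellings. Neither motif was found for Map2k2 and Mapk3. The signal of Mos starts 22 bases from the annotated end, and Map2k1 has 2, which start 43 and 21 bases from it. A missing match says only that these letters are not in this window, and other spellings were not searched. The 30 bases around the last signal, all within the 3′ UTR of the last exon on GRCm38, are given for Mos (chr4:3870661-3870690, minus strand), Map2k1 (chr9:64185773-64185802, minus strand), the members at the head of the cascade, and Rps6ka2 (chr17:7303277-7303306, plus strand), which alone held both motifs, with the motifs in capitals:
Mos: atatttttaggaAATAAAgttaccacgaac
Map2k1: ctatcaagttaaAATAAAagggacaagaga
Rps6ka2: tgagattttttgAATAAAcatggaTTTTAT

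**Figure D1:**
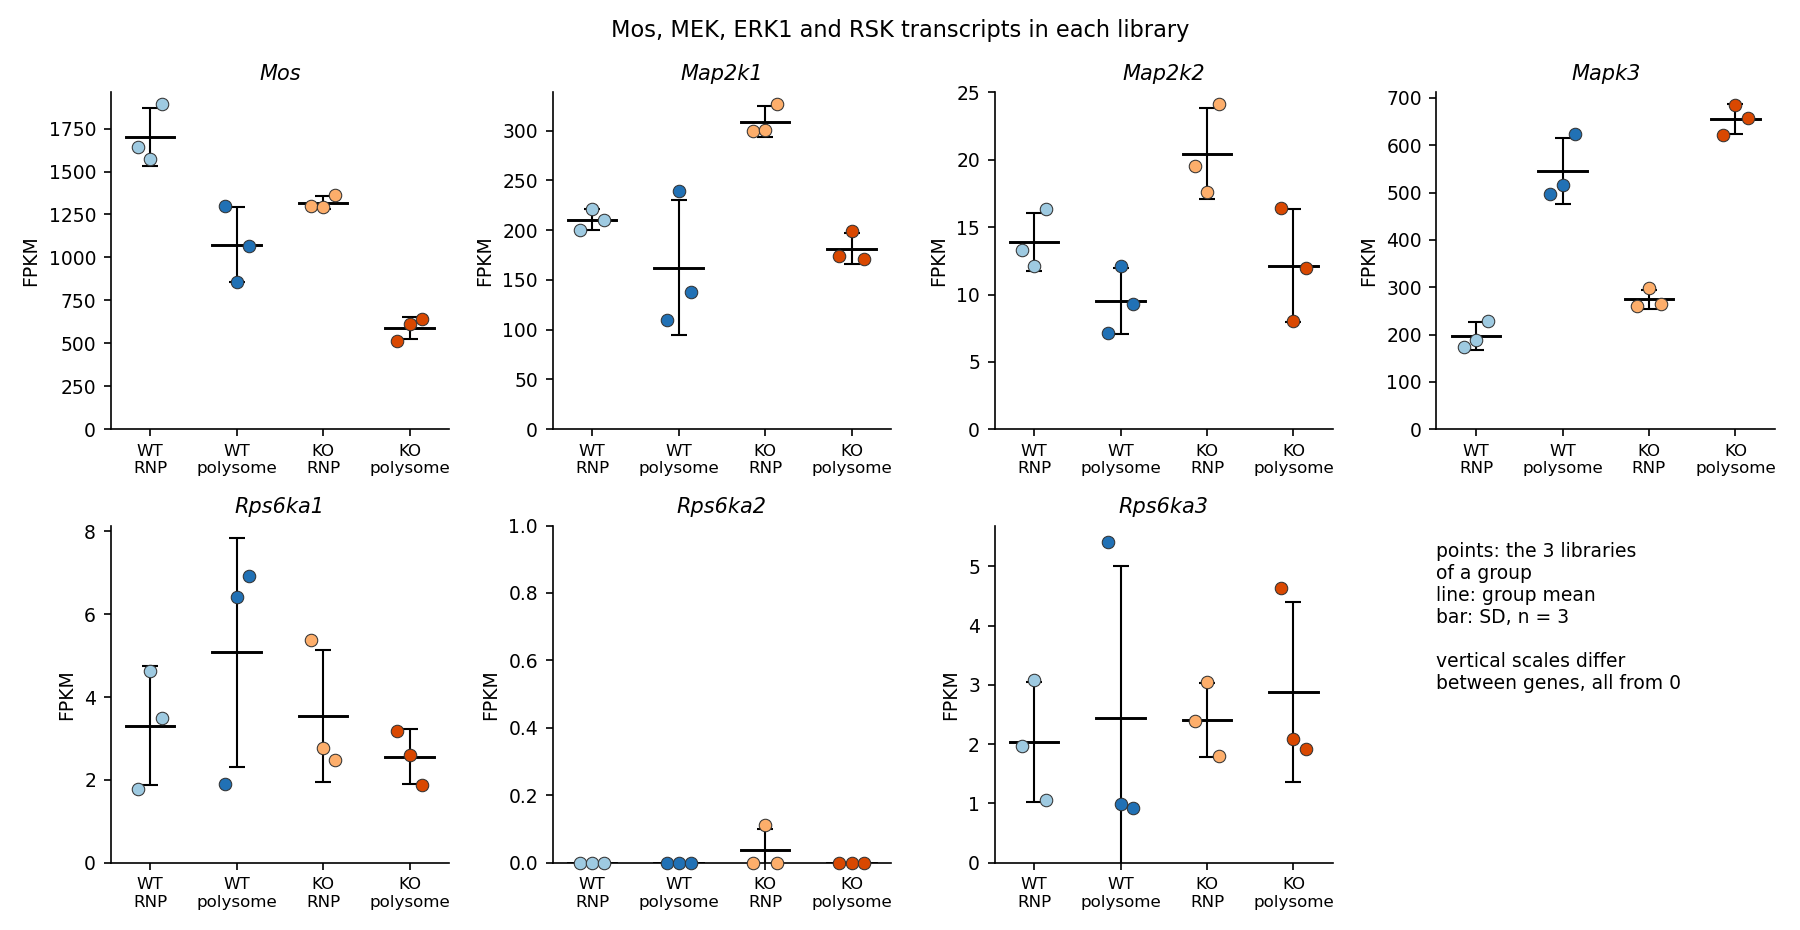
FPKM (vertical axes, linear and from 0, on a scale of their own for each gene) of the 7 genes in the 12 libraries, by genotype and pool, with points for libraries, lines for group means and bars for the SD of 3 libraries, cut at 0. Mos is highest in the WT RNP pool, at 1571 to 1894, and lowest in the KO polysome pool, at 515 to 639.8, while Mapk3 is highest in the polysome pools.

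Mos lies on chromosome 4 (GENCODE M21 on GRCm38, chr4:3870657-3872105, minus strand) as a single exon of 1449 bases, of which 129 are 3′ UTR. WT oocytes held Mos at 1645, 1571 and 1894 FPKM in RNP replicates 1 to 3 and at 1297, 859 and 1069 FPKM on polysomes. KO oocytes held it at 1299, 1295 and 1364 FPKM in RNPs and at 515, 610.0 and 639.8 FPKM on polysomes. All KO values lay below all WT values of the same pool, and within each genotype all polysome values lay below all RNP values. The order of the group means was WT RNP (1703 ± 169, SD, n = 3), KO RNP (1319 ± 38.9), WT polysome (1075 ± 219) and KO polysome (588 ± 65.1). Only KO RNP and WT polysome overlapped among neighbours in that order, by the 1297 of WT polysome replicate 1 and the 1295 of KO RNP replicate 2. By group mean Mos ranked 19 among all genes in the WT RNP pool, 51 in WT polysomes, 32 in KO RNP and 114 in KO polysomes.

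In the polysome pool Mos fell in the KO to 0.547 times the WT mean. The log2 change was -0.85 ± 0.16 (SE, 95% interval -1.21 to -0.50), and limma gave a Benjamini-Hochberg adjusted p of 0.0130. Without KO polysome replicate 2 the change was -0.88 and limma's adjusted p 0.0419, the highest with any library left out; the lowest was 0.0107. In the RNP pool Mos fell to 0.775 times the WT mean, by 0.36 ± 0.08 on the log2 scale (limma, Benjamini-Hochberg adjusted p = 0.00952). Both calls were lost when genes of low FPKM were not filtered out, with adjusted p of 0.0536 and 0.0540 (limma), and when the variance was not modelled with a trend on intensity, with 0.106 and 0.185.

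Whether Mos fell further on polysomes than in RNPs was tested as an interaction between genotype and pool, with the 12 libraries fitted together. The difference was -0.49 ± 0.19 (95% interval -0.89 to -0.09) and the unadjusted p from limma was 0.0199, but after Benjamini-Hochberg adjustment p was 0.334 and Mos was not called. The adjusted p ranged from 0.118 to 0.530 with a library left out (limma, Benjamini-Hochberg) and from 0.252 to 0.593 under the other settings. Without KO polysome replicate 2 the difference was -0.52. The loss from polysomes is therefore not shown to differ from the loss from RNPs.

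Between the pools of a genotype, Mos was lower on polysomes in both. In WT oocytes the polysome mean was 0.631 times the RNP mean and the log2 change -0.68 ± 0.15 (limma, Benjamini-Hochberg adjusted p = 0.0169). In KO oocytes the polysome mean was 0.446 times the RNP mean and the change -1.17 ± 0.09 (limma, Benjamini-Hochberg adjusted p = 3.07e-05). The WT call was lost without WT RNP replicate 3, with a change of -0.60 and limma's adjusted p at 0.0651, without the filter (0.0762) and without the trend (0.147). The KO call was kept in every setting tried, with the adjusted p of limma at 0.00572 or below, and without KO polysome replicate 2 the change was -1.20.

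MEK1, encoded by Map2k1, is phosphorylated by MOS. Map2k1 (chr9:64185770-64253631, minus strand, 11 exons) stood at 199.97, 221 and 211 FPKM in RNPs of WT and at 299.6, 301 and 327 FPKM in RNPs of KO oocytes. Its polysome values were 110.1, 239 and 138 FPKM for WT and 174, 199 and 171 FPKM for KO replicates. The RNP groups did not overlap, with the KO above the WT, whereas WT polysome replicate 2 lay above all KO polysome libraries and the other WT polysome libraries below them. The group means were 309 ± 15.7 in KO RNP, 211 ± 10.6 in WT RNP, 182 ± 15.5 in KO polysome and 162 ± 67.9 in WT polysome libraries. The range of the WT polysome libraries covered the ranges of the KO polysome and WT RNP libraries, while all WT RNP libraries lay above all KO polysome libraries.

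Map2k1 rose in the RNP pool of the KO to 1.47 times the WT mean, by 0.55 ± 0.09 on the log2 scale (limma, Benjamini-Hochberg adjusted p = 0.00277). That call held with each library left out, at an adjusted p of 0.00482 to 0.0156 (limma), and was lost without the intensity trend, at 0.0639. In the polysome pool the change of 0.23 ± 0.26 was not called (limma, Benjamini-Hochberg adjusted p = 0.615), and without WT polysome replicate 1 it was -0.004. The difference of this genotype effect between pools, -0.32 ± 0.29, was not called either (limma, Benjamini-Hochberg adjusted p = 0.749). Between pools, Map2k1 was lower on polysomes in the KO, at 0.587 times the RNP mean and a log2 change of -0.77 ± 0.10 (limma, Benjamini-Hochberg adjusted p = 0.000516), and -0.84 without KO polysome replicate 2 (0.000875). In WT the change of -0.45 ± 0.25 was not called (adjusted p = 0.279 from limma), and it was -0.77, with an adjusted p of 0.0191, without WT polysome replicate 2.

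MEK2, encoded by Map2k2 (chr10:81105915-81133975, plus strand, 11 exons), was much scarcer at the RNA level. RNP replicates held it at 13.3, 12.1 and 16.3 FPKM in WT and at 19.5, 17.6 and 24.2 FPKM in KO oocytes. Polysome replicates held it at 7.17, 12.1 and 9.27 FPKM in WT and at 16.4, 8.02 and 11.98 FPKM in KO oocytes. The KO RNP libraries lay above the WT RNP libraries, and the polysome groups overlapped. No comparison called Map2k2. In the RNP pool its change was 0.52 ± 0.22, with an unadjusted p of 0.0428 and a Benjamini-Hochberg adjusted p of 0.132 from limma. In KO oocytes its polysome value was lower by 0.75 ± 0.28 on the log2 scale (limma, Benjamini-Hochberg adjusted p = 0.0718), and this was called without KO polysome replicate 1, at -0.98 and an adjusted p of 0.0241, while without KO polysome replicate 2 it was -0.50 and not called (0.170). The ratio of Map2k1 to Map2k2 FPKM was 10.6 to 24.9 in the 12 libraries.

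ERK1, the kinase at the third tier, is encoded by Mapk3 (chr7:126759601-126765819, plus strand, 9 exons), and its transcript showed the opposite division between pools. For WT replicates Mapk3 was measured at 173, 189 and 229 FPKM in RNPs and at 497, 516 and 625 FPKM on polysomes. KO replicates gave 260.4, 297 and 265 FPKM in RNPs and 621, 685 and 658 FPKM on polysomes. All polysome libraries lay above all RNP libraries, and all KO RNP libraries above all WT RNP libraries, while the polysome groups overlapped only at WT polysome replicate 3 and KO polysome replicate 1. The order of the means was KO polysome (655 ± 31.8, SD, n = 3), WT polysome (546 ± 69.0), KO RNP (274 ± 20.1) and WT RNP (197 ± 28.9).

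The polysome mean of Mapk3 was 2.77 times the RNP mean in WT and 2.39 times in KO oocytes. The log2 changes were 1.47 ± 0.14 and 1.25 ± 0.09 (limma, Benjamini-Hochberg adjusted p = 0.000404 and 1.74e-05), and both were called in every setting tried, the KO change at 1.22 without KO polysome replicate 2. In the RNP pool Mapk3 rose in the KO to 1.39 times the WT mean, by 0.48 ± 0.12 (limma, Benjamini-Hochberg adjusted p = 0.0200). This call was lost when WT RNP replicate 1, KO RNP replicate 2 or KO RNP replicate 3 was left out, with adjusted p of 0.0544, 0.0838 and 0.0505 (limma), without the filter (0.0572) and without the trend (0.129). In the polysome pool the change of 0.27 ± 0.12 had an unadjusted p of 0.0473 and an adjusted p of 0.184 (limma), so it was not called. The difference of the genotype effect between pools was -0.21 ± 0.17 (limma, Benjamini-Hochberg adjusted p = 0.701), and -0.33 to -0.11 with a library left out.

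The RSK kinases act below the ERK kinases, and the transcripts of the 3 in the set were low. Rps6ka6, an RSK gene outside the set, was at 4.16 to 18.5 FPKM. Rps6ka1 (chr4:133847290-133887797, minus strand) had FPKM of 1.78 to 6.91 and Rps6ka3 (chrX:159210307-159368244, plus strand) of 0.926 to 5.41 over the 12 libraries. Rps6ka2 (chr17:7170115-7303315, plus strand) was listed at 0 in 11 libraries and at 0.111 in KO RNP replicate 2, so it passed the filter in no comparison and was not tested. For Rps6ka1 and Rps6ka3 all groups overlapped and no comparison called either gene, with Benjamini-Hochberg adjusted p from limma of 0.473 or above. The 95% intervals were wide, and between genotypes on polysomes they ran from -1.84 to 0.53 for Rps6ka1 and from -1.01 to 1.71 for Rps6ka3 on the log2 scale.

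**Figure D2:**
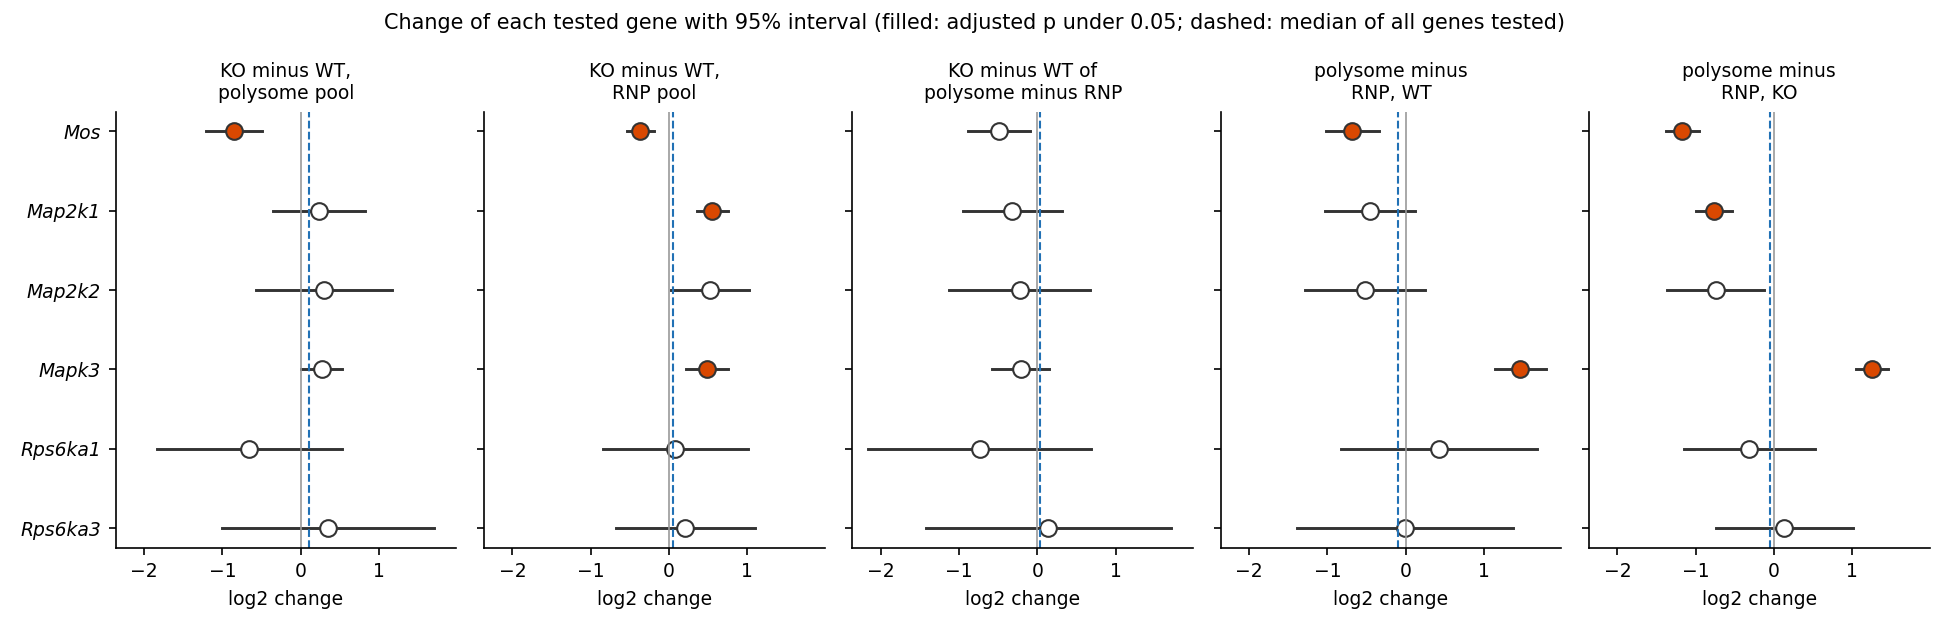
Log2 change on the log2(FPKM + 1) scale (horizontal axes) of the 6 genes tested in each of the 5 comparisons, with points for the estimate, filled where the Benjamini-Hochberg adjusted p from limma was under 0.05, bars for the 95% interval and a dashed line for the median of all genes tested. Mos is filled in 4 comparisons, at -0.85, -0.36, -0.68 and -1.17, and no gene is filled for the difference of the genotype effect between pools.

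Counted over the set, 6 of the 7 genes were tested in every comparison. Between genotypes, 1 of 6 was called on polysomes, lower in the KO, where 989 of all 9536 genes tested were called (10.4%). In RNPs 3 of 6 were called, 2 higher and 1 lower, against 20.7% of 9931 genes. The interaction called 0 of 6 by limma at the adjusted threshold against 0.237% of 10949 genes, and 1 had an unadjusted p under 0.05, as did 1220 of those genes. Between pools 1 gene was called higher and 1 lower on polysomes in WT, where 14.7% of 9574 genes were called, and 1 higher and 2 lower in KO, where 29.2% of 9851 were. These counts over 6 genes are a description only, and the comparisons between genotypes and between pools share libraries. The median change of the 6 was 0.25 on polysomes and 0.34 in RNPs, beside 0.10 and 0.05 over all genes tested, so it had the opposite sign to the change of Mos.

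Ratios within a library do not depend on how libraries are scaled to each other. The ratio of Mos to Mapk3 FPKM, chosen after the values were seen and not tested, was 9.49, 8.30 and 8.26 in WT RNP and 4.99, 4.36 and 5.14 in KO RNP libraries. On polysomes it was 2.61, 1.67 and 1.71 in WT and 0.829, 0.891 and 0.972 in KO libraries. The 4 groups did not overlap, and only in KO polysomes was there less Mos than Mapk3 in every library. The ratio of Mos to Map2k1 was lower in the KO than in the WT RNP pool as well, without overlap, while on polysomes WT replicate 2, at 3.59, lay inside the KO range of 2.96 to 3.74.

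**Figure D3:**
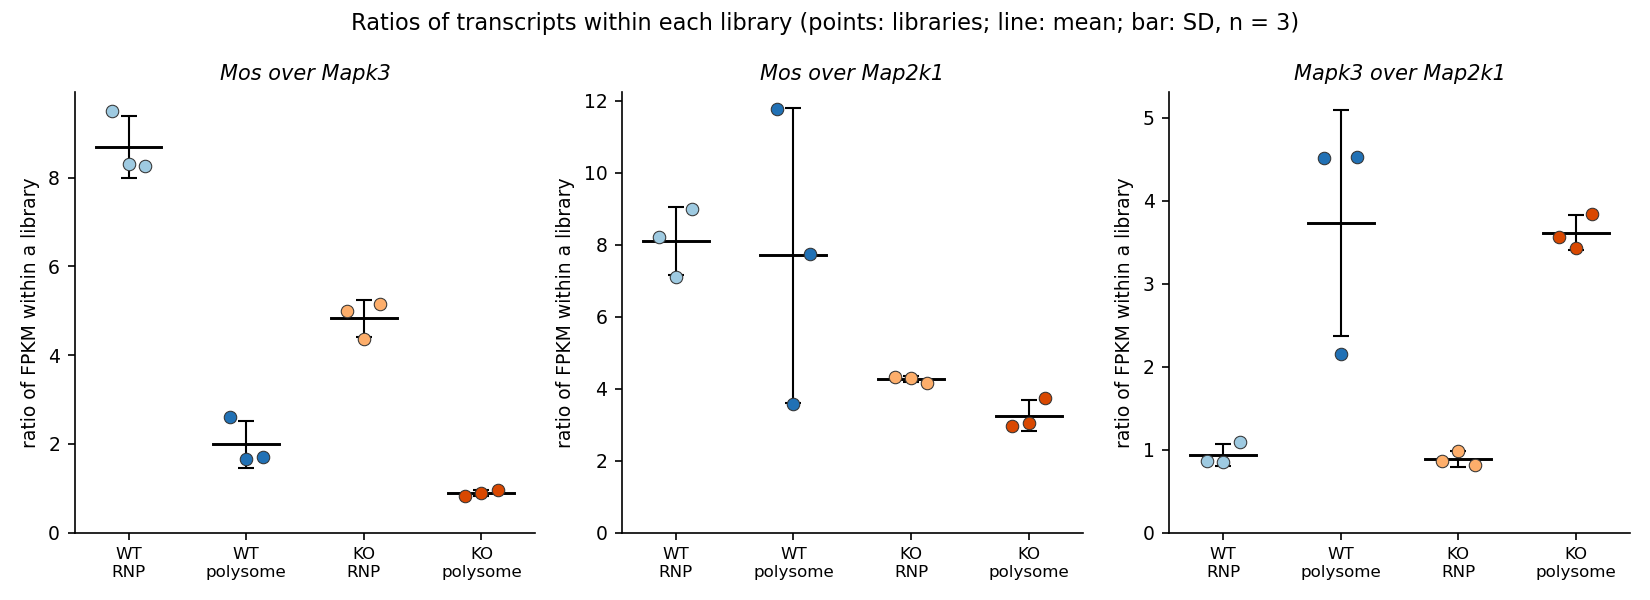
Ratio of the FPKM of a pair of genes within each library (vertical axes, linear and from 0) by genotype and pool, with points for libraries, lines for group means and bars for the SD of 3 libraries. The ratio of Mos to Mapk3 is 8.26 to 9.49 in the WT RNP pool and 0.829 to 0.972 in the KO polysome pool, while the ratio of Mapk3 to Map2k1 is 0.811 to 1.09 in RNP and 2.16 to 4.53 in polysome libraries.

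Over the 12 libraries the members varied in different ways. Pearson's r of log2(FPKM + 1) was 0.806 between Map2k1 and Map2k2 and -0.856 between Mos and Mapk3. The libraries share 4 groups and pairs of genotype and pool, so r describes mostly the order of the groups and carries no p. Among 6679 other genes with a mean FPKM of at least 5, those most like Mos were Gemin7 (r = 0.978), which encodes a subunit of the SMN complex, Fnbp4 (0.973) and Slc2a1 (0.970), the gene of a glucose transporter. Gemin7 had mean FPKM of 906 in WT RNP, 471 in WT polysome, 660.0 in KO RNP and 187 in KO polysome libraries. Most like Mapk3 were Gpx3 (0.992), Maea (0.992) and Cog6 (0.984). Most like Map2k1 were Ssh1 (0.937), D6Ertd474e (0.934) and Trim71 (0.929), and most like Map2k2 were Sil1 (0.910), Ina (0.908) and Bcl2l1 (0.907).

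Genes listed as regulators of the translation of the Mos message were called in both directions. Whether they act on Mos in these oocytes was not tested. CPEB1 binds the cytoplasmic element and DAZL binds U-rich sites in 3′ UTRs, and both control the stored messages of oocytes. In the spellings searched, no cytoplasmic element was found in the last 150 bases of Mos. Of 10 listed genes 9 were in the table, and 7 were tested in each comparison between genotypes. On polysomes Cpeb1 rose and Dazl fell, 2 of 7 beside 10.4% of all genes, and in RNPs Dazl fell, 1 of 7 beside 20.7%. Cpeb1 FPKM was 666, 703 and 613 in WT polysome and 820.3, 975 and 908 in KO polysome libraries, without overlap, a log2 change of 0.45 ± 0.11 (limma, Benjamini-Hochberg adjusted p = 0.0328). In RNPs its change was 0.04 ± 0.09 and was not called. Dazl was 48.2, 92.0 and 40.3 in WT polysomes and 18.3, 10.8 and 19.2 in KO polysomes, and 93.3, 100.4 and 87.7 in WT RNPs and 30.8, 33.4 and 27.9 in KO RNPs. All KO libraries lay below all WT libraries of the same pool, with changes of -1.79 ± 0.36 and -1.58 ± 0.14 (limma, Benjamini-Hochberg adjusted p = 0.0174 and 0.000141). The list had a median change of 0.21 on polysomes and 0.04 in RNPs, beside 0.10 and 0.05 for all genes. The call of Cpeb1 was lost without WT polysome replicate 1 or 3 or KO polysome replicate 2 or 3 (limma, adjusted p up to 0.143), and that of Dazl on polysomes without KO polysome replicate 2 (0.0573). Without the filter and without the trend neither was called on polysomes, at adjusted p of 0.0782 and 0.258 for Cpeb1 and 0.0551 and 0.0567 for Dazl (limma), and Cpeb1 was not with the replicate block either (0.0663).

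Upstream of MEK, the list of RAS, RAF and scaffold genes had 8 of 9 genes tested. On polysomes 1 was called lower, near the 10.4% of all genes, and in RNPs limma called 0, beside 20.7%. An unadjusted p under 0.05 was found for 3 on polysomes, beside 2505 of 9536 genes, and for 2 in RNPs, beside 3385 of 9931. Hras, a small GTPase that recruits RAF, had FPKM of 17.6, 12.6 and 13.3 in WT polysomes and 5.29, 4.80 and 6.02 in KO polysomes, without overlap, a log2 change of -1.28 ± 0.34 (limma, Benjamini-Hochberg adjusted p = 0.0493). That call was lost with any of the 6 libraries left out, at an adjusted p of 0.0709 to 0.152 (limma), and with a pseudocount of 5, without the filter or with the replicate block (up to 0.103). In RNPs its change was 0.10 ± 0.27. Lamtor3, a scaffold of MEK1 and ERK1 and the most abundant gene of the list, had mean FPKM of 222 in WT and 343 in KO polysomes and was not called. The median change of the list was -0.61 on polysomes and -0.40 in RNPs.

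Other MAP kinases and their kinases numbered 16, of which 11 were tested on polysomes, with 1 called beside 10.4% of all genes, and 12 in RNPs, with 2 called beside 20.7%, of which Map2k5 passed the filter through the WT libraries alone. Mapk7, the gene of ERK5, rose in both pools: from 2.02, 8.66 and 4.23 to 20.9, 15.9 and 16.3 on polysomes and from 6.60, 12.1 and 3.20 to 21.5, 13.6 and 27.9 in RNPs. The groups did not overlap, and the changes were 1.80 ± 0.47 and 1.50 ± 0.43 (limma, Benjamini-Hochberg adjusted p = 0.0451 and 0.0353). Map2k5, which encodes the kinase of ERK5, was at 1.89, 2.79 and 2.45 in WT RNPs and 0.882, 0 and 0 in KO RNPs, so with the filter only a fall could be called, and without it Map2k5 was not called (limma, Benjamini-Hochberg adjusted p = 0.0502). The call of Map2k5 was also lost with a pseudocount of 0.1 (0.0739), with the replicate block (0.0744) and without KO RNP replicate 2 or 3 (limma, adjusted p of 0.141 and 0.138). On polysomes Map2k5 was too low to be tested. The call of Mapk7 on polysomes was lost without any library but WT polysome replicate 2 (limma, adjusted p up to 0.141), and in RNPs without WT or KO RNP replicate 1 or 3 (up to 0.122). In neither pool was Mapk7 called without the filter (limma, adjusted p of 0.0981 and 0.104), with the replicate block (0.0724 and 0.0684) or without the trend (0.0715 and 0.0773), nor on polysomes with a pseudocount of 0.1 (0.0622). The most abundant gene, Mapk6, had mean FPKM of 77.8 in WT and 74.1 in KO polysomes and was not called. The list had a median change of 0.21 on polysomes and -0.20 in RNPs.

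Among other kinases activated by ERK, the MNK genes moved in opposite directions. MNK1 and MNK2 phosphorylate the cap-binding factor eIF4E. Mknk1 fell in both pools, from 79.0, 55.9 and 55.7 to 27.8, 12.5 and 16.1 on polysomes and from 141, 156 and 161 to 38.9, 39.7 and 52.6 in RNPs. The changes were -1.76 ± 0.31 and -1.80 ± 0.15 (limma, Benjamini-Hochberg adjusted p = 0.0116 and 9.73e-05), and both calls held in every setting tried. Mknk2 rose in RNPs from 4.01, 3.16 and 0.984 to 14.8, 11.1 and 14.9, by 2.06 ± 0.39 (limma, Benjamini-Hochberg adjusted p = 0.00629). On polysomes its change of 1.35 ± 0.41 was not called (limma, Benjamini-Hochberg adjusted p = 0.0715). With 4 of 5 genes tested in each pool, 1 was called lower on polysomes, beside 10.4% of all genes, and 1 in each direction in RNPs, beside 20.7%, and the median changes were -0.59 and -0.50.

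The list of ERK phosphatases held 12 Dusp genes, whose products remove activating phosphates from MAP kinases and not from ERK alone. Which of them act on ERK in oocytes was not tested. Of the 12 genes 7 were tested on polysomes and 6 in RNPs, with 1 called in each, beside 10.4% and 20.7% of all genes. Dusp1 fell on polysomes from 79.1, 68.4 and 46.0 to 24.0, 27.3 and 38.4, by 1.08 ± 0.27 (limma, Benjamini-Hochberg adjusted p = 0.0400), and that call was lost without any library but WT polysome replicate 3 (limma, adjusted p up to 0.127), with a pseudocount of 0.1, without the filter, with the replicate block and without the trend (up to 0.103). Dusp10 rose in RNPs from 58.3, 68.0 and 71.9 to 102.0, 118 and 99.4, by 0.68 ± 0.13 (limma, Benjamini-Hochberg adjusted p = 0.00756). Dusp14, the most abundant, had mean FPKM of 383 in WT and 283 in KO polysomes and was not called. The median change was 0.52 on polysomes and 0.30 in RNPs.

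Inhibitors of RAS and ERK signalling held the largest change between genotypes among the pathway genes tested. Spry1, a feedback inhibitor of receptor tyrosine kinase signalling, had FPKM of 120.5, 77.2 and 94.6 in WT polysomes and 7.08, 3.09 and 4.22 in KO polysomes. In RNPs it was 85.1, 73.1 and 106 in WT and 5.81, 3.45 and 11.2 in KO libraries. The KO means were 0.0492 and 0.0773 times the WT means, and the log2 changes -4.12 ± 0.32 and -3.62 ± 0.34 (limma, Benjamini-Hochberg adjusted p = 0.000669 and 0.000189), called in every setting tried. Spry4 fell in RNPs by 0.63 ± 0.10, and its change of -0.55 ± 0.15 on polysomes was not called (limma, Benjamini-Hochberg adjusted p = 0.00238 and 0.0561) but was without WT polysome replicate 2 (0.0327) and with a filter at 5 FPKM (0.0433). Pebp1, which encodes the RAF kinase inhibitor protein, rose in both pools, from means of 938 to 1591 on polysomes and of 174 to 273 in RNPs. Its changes were 0.77 ± 0.13 and 0.66 ± 0.12 (limma, Benjamini-Hochberg adjusted p = 0.0111 and 0.00458). Without the trend both calls of Pebp1 were lost, at adjusted p of 0.115 and 0.0568 (limma), as was that of Spry4 in RNPs (0.0518). Spred1 rose in RNPs by 1.04 ± 0.28, a call lost without WT RNP replicate 3 or any KO RNP library (limma, Benjamini-Hochberg adjusted p = 0.0275, and up to 0.114) and with the replicate block (0.0627). Of 9 listed genes 7 were tested, with 1 called in each direction on polysomes, beside 10.4% of all genes, and 2 in each direction in RNPs, beside 20.7%, and the medians were 0.77 and 0.66.

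Substrates of MAPK or RSK known from oocytes and eggs were all tested, 6 of 6. Between genotypes 2 were called in each pool, beside 10.4% of all genes on polysomes and 20.7% in RNPs. The 2 were lower in the KO in each pool. Mapk1ip1, which encodes a spindle-stabilizing protein phosphorylated by ERK, had FPKM of 496, 422 and 335 in WT polysomes and 150.2, 138 and 138 in KO polysomes. In RNPs it was 614, 487 and 571 in WT and 242, 263 and 210.4 in KO libraries. The groups did not overlap in either pool, and the changes were -1.53 ± 0.16 and -1.22 ± 0.11 (limma, Benjamini-Hochberg adjusted p = 0.00182 and 0.0001895). Fbxo43, the gene of the anaphase inhibitor EMI2 that holds the egg in metaphase II, fell in RNPs from 78.1, 80.5 and 82.6 to 43.0, 37.3 and 30.1, by 1.12 ± 0.16 (limma, Benjamini-Hochberg adjusted p = 0.00160). On polysomes its change of -0.83 ± 0.26 was not called (limma, Benjamini-Hochberg adjusted p = 0.0828) but was without WT polysome replicate 3 (0.0483). Cdk2ap2, whose protein is tied to spindle microtubules in eggs, fell on polysomes from 552, 606 and 634 to 357, 338 and 324, by 0.81 ± 0.11 (limma, Benjamini-Hochberg adjusted p = 0.00386), while its change in RNPs was -0.05 ± 0.14. The call of Cdk2ap2 was lost without the trend, at an adjusted p of 0.0778 (limma). The median change of the list was -0.49 on polysomes and 0.02 in RNPs.

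**Figure D4:**
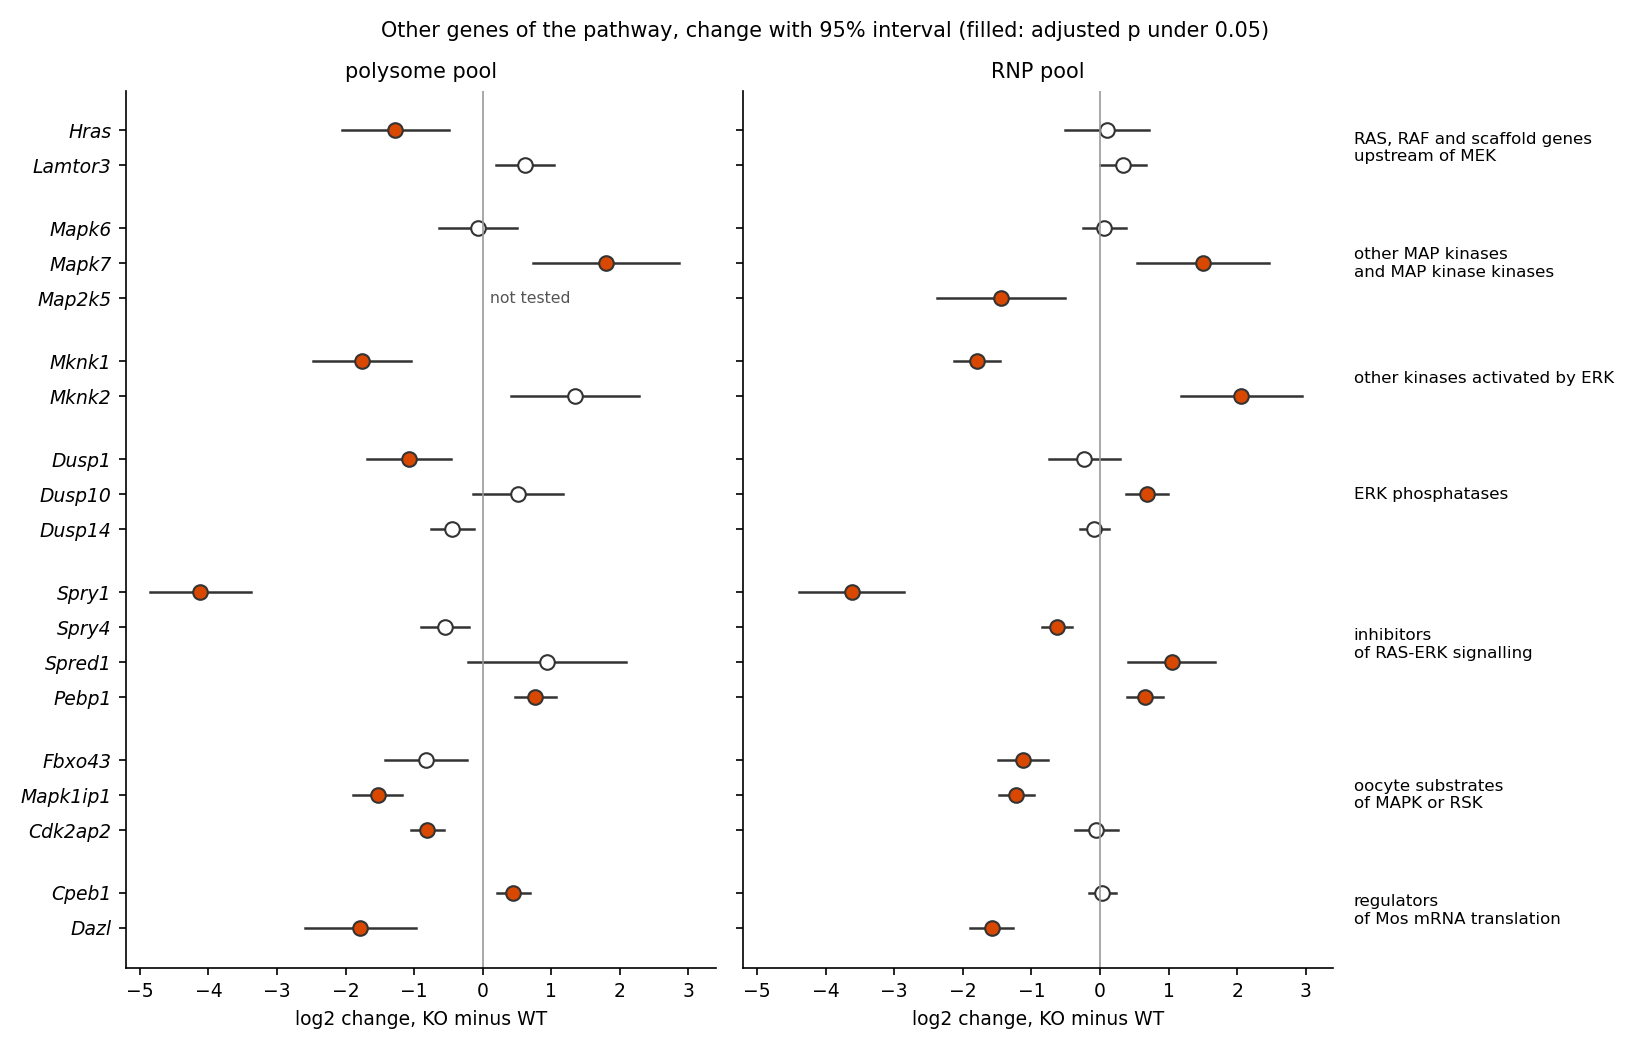
Log2 change between KO and WT (horizontal axes, log2(FPKM + 1) scale) of the named genes of the 7 pathway lists in the polysome and the RNP pool, with points filled where the Benjamini-Hochberg adjusted p from limma was under 0.05, bars for the 95% interval, and Map2k5 not tested on polysomes. Spry1 lies lowest in both pools, at -4.12 and -3.62, and Mapk7 and Mknk2 lie highest, at 1.80 on polysomes and 2.06 in RNPs.

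In the test of whether genotype effects differ between pools, limma called 0 of the 54 pathway genes tested, beside 0.237% of all genes, and 5 had an unadjusted p under 0.05, beside 1220 of 10949. Between the pools, the inhibitor Pebp1 was higher on polysomes by 2.42 ± 0.15 in WT and 2.53 ± 0.10 in KO oocytes, and the polysome mean of Cpeb1 was 2.31 times the RNP mean in WT, with a log2 change of 1.61 ± 0.10 in KO (limma, Benjamini-Hochberg adjusted p of 0.000199 or below in each). Mknk1 was lower on polysomes by 1.27 ± 0.18 and 1.24 ± 0.28, and Dusp10 by 1.01 ± 0.27 and 1.18 ± 0.17 (limma, Benjamini-Hochberg adjusted p of 0.0377 or below in each). The call of Dusp10 in WT was lost without any library but WT polysome replicate 3 (limma, adjusted p up to 0.119), without the filter (0.0828) and without the trend (0.101). Mapk1ip1, Hras and Dazl were lower on polysomes in the KO, with log2 changes of -0.74, -1.53 and -0.93. Their changes between pools in WT, of -0.43, -0.15 and -0.72, were not called. Cdk2ap2 was higher on polysomes in WT, by 0.71 ± 0.14, a call lost without the trend, and was not called in KO, at -0.05 ± 0.10 (limma, Benjamini-Hochberg adjusted p = 0.0134, 0.123 and 0.746). Over the pathway lists limma called 10 of 50 genes between pools in WT and 16 of 49 in KO, beside 14.7% and 29.2% of all genes. The KO call of Dazl was lost without KO RNP replicate 1 or 2 (limma, adjusted p up to 0.0684).

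Markers of other cells of the ovary were looked up in all libraries. The 10 oocyte markers were each found in every library, and Gdf9 was the most abundant. Their summed FPKM was 5395 to 5648 in WT RNP, 7134 to 7498 in KO RNP, 21376 to 23229 in WT polysome and 25845 to 28207 in KO polysome libraries. These sums were higher in the KO in both pools without overlap. Gdf9 was the largest part of each sum, at mean FPKM of 3006 in WT RNP, 4318.5 in KO RNP, 15413 in WT polysome and 17337 in KO polysome libraries. Between genotypes Gdf9 was called higher in RNPs (limma, Benjamini-Hochberg adjusted p = 0.000458). On polysomes it overlapped and was not called (0.211). Limma called 3 of 10 higher on polysomes and 6 of 10 in RNPs between genotypes, beside 10.4% and 20.7% of all genes, and 0 lower. Not all went up: without overlap, Bmp15 was lower in KO RNPs (mean FPKM 605 against 671) and Oosp1 in KO polysomes (148 against 176), neither called. The 12 granulosa and cumulus markers summed to 32.0, 27.8 and 26.6 in WT RNP, 73.9, 22.7 and 42.3 in WT polysome, 63.6, 58.0 and 38.7 in KO RNP and 75.1, 81.1 and 98.7 in KO polysome libraries. These sums too were higher in the KO than in the WT of either pool, without overlap. The sums of both lists thus moved with the genotype. Map2k1 and Mapk3 also rose in RNPs of the KO, while Mos fell in both pools. The most abundant was Cyp19a1 (aromatase), with a mean FPKM of 28.9, except in KO polysomes, where Inha was at 51.4, 39.4 and 39.5, against 9.58, 0 and 8.11 in WT polysomes. Cyp19a1 was at 62.0, 19.0 and 32.0 in WT and 14.6, 23.5 and 34.5 in KO polysomes, with overlap, and its changes of -0.54 ± 0.45 on polysomes and 0.38 ± 0.23 in RNPs were not called (limma, Benjamini-Hochberg adjusted p = 0.495 and 0.269). On polysomes Inha met the filter only with the KO libraries, so no test of it is given beside the values above. The genes next named passed the filter through the KO libraries alone, so only their values are given: Inha in RNPs at 11.0, 6.03 and 3.80 against 0, 0.240 and 0 in WT, and on polysomes Inhba at 3.72, 8.27 and 11.9 against 0.252, 0 and 0 and Fshr at 4.36, 3.14 and 6.74 against 0, 0 and 0.700. Fst, Cyp11a1 and Amhr2 were below 1 in all libraries, with Cyp11a1 lower in the KO on polysomes (0.0971, 0 and 0 against 0.838, 0.702 and 0.644), and none of the 12 was at 0 in all. The 6 theca and stroma markers summed to 2.38 or less, with Dcn the most abundant and Star and Lhcgr at 0 in every library. The 6 blood and immune markers summed to 8.71 or less, with Cd68 the most abundant and Ptprc and the 3 globin genes at 0 throughout. The part of somatic cells and of the oocyte marker sums in the changes of Mos, Map2k1, Mapk3 and the pathway genes was not tested.

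**Figure D5:**
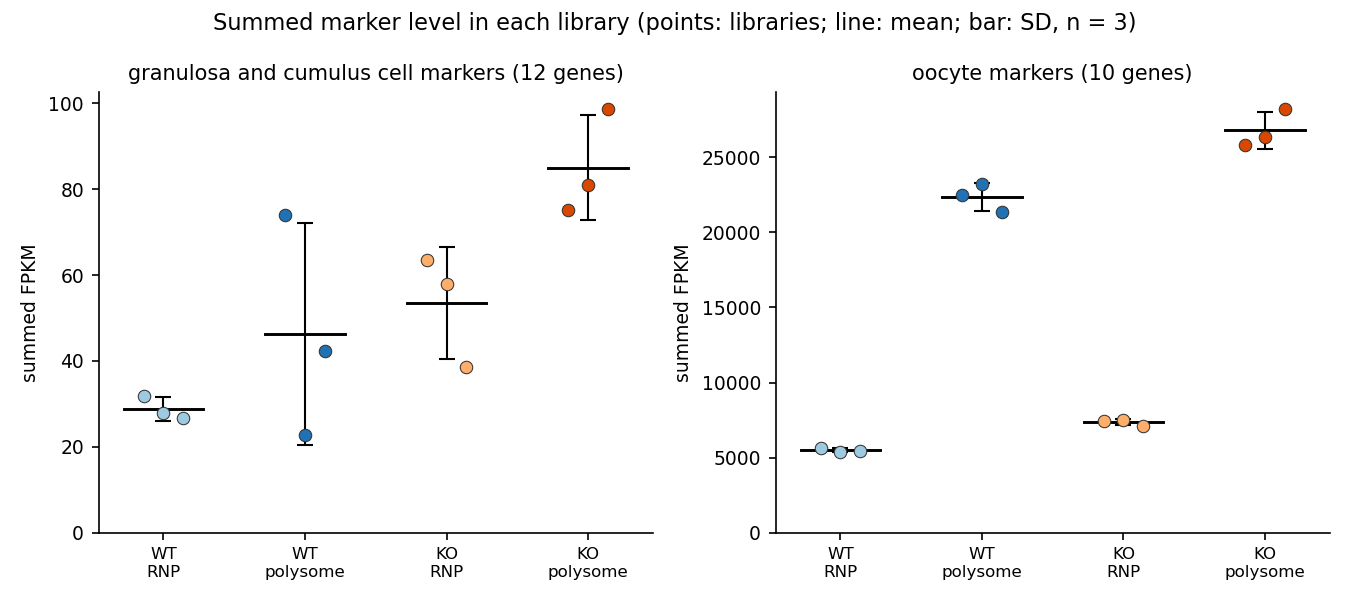
Summed FPKM (vertical axes, linear and from 0) of the 12 granulosa and cumulus cell markers and of the 10 oocyte markers in each library, with points for libraries, lines for group means and bars for the SD of 3 libraries. Granulosa and cumulus sums are 75.1 to 98.7 in the KO polysome pool and 26.6 to 32.0 in the WT RNP pool, and oocyte sums are 5395 or more in every library.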

How the data were processed

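The 12 libraries, grouped by the labels, hold RNA from polysome or RNP pools made from WT or Lsm14b KO oocytes. Trimmed reads were mapped by the authors to mm10 (TopHat2 2.0.13), and the deposited FPKM come from Cufflinks 2.2.1, with Cuffnorm and Cuffdiff also named in the submitters' processing notes. The annotation release is not given in the sources used here, and the sources differ on the sucrose range and on the library kit. The deposited table also holds 54 columns of the authors' own comparisons (log2 changes, p-values and q-values), which were not used. Whether strand was used is not given, so reads from the exon bases that Rps6ka1 shares with the antisense gene Gm12977 may not be told apart; the other members share no exon bases with another gene of the annotation used here.

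From the FPKM, log2(FPKM + 1) was fitted with limma 3.58.1 in R 4.3.3 (lmFit, eBayes with a trend on intensity), after dropping genes that did not reach an FPKM of 1 in 3 or more of the libraries compared, with Benjamini-Hochberg adjustment over all genes tested and a threshold of 0.05. The 5 comparisons were KO against WT in each pool, the interaction of genotype and pool, and the pools in each genotype. The method was checked on simulated data. Alternatives were the pseudocount, the filter, scaling to the same median, a replicate block, no trend, and each library left out. Tables and figures used Python 3.11.15, numpy 2.4.6, pandas 2.3.3 and matplotlib 3.10.9. Gene positions and transcript ends came from GENCODE M21 on GRCm38, the build of mm10.

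The members and lists were chosen with earlier results of these data known. Pathway genes are named where they were called between genotypes or in the interaction (at most 5 a list), with the most abundant gene of each list; the genes most like a member are the 3 with the highest r, for members with a mean FPKM of at least 5. Mir300, Rps6ka6 and the markers named fall outside that rule. A gene of the lists is counted with its list and not reported here by name.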

Additional observations from a re-analysis of the deposited data

How the results depend on the processing

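Of 469 values of the 6 tested members and Lsm14b under the alternatives, 432 kept their direction and their side of the threshold, 17 were no longer called, 2 were newly called and 18 changed sign. The counts of genes called fell without the filter to 545 on polysomes between genotypes, and without the intensity trend to 508 there, to 6 in the interaction and to 728 between pools in WT. With single libraries left out the counts were 383 to 790 on polysomes and 1255 to 1911 in RNPs between genotypes, 0 to 46 in the interaction and 780 to 1212 between pools in WT. Without the filter the changes of Mos between genotypes (-0.85 on polysomes, -0.36 in RNPs) and between WT pools (-0.68), and of Mapk3 in RNPs (0.48), were as before but no longer called; without the trend the same held for these and for Map2k1 in RNPs (0.55), since both alternatives change the genes or the variance used and not the estimates. With libraries left out, the change between genotypes in RNPs was 0.39 to 0.59 for Mapk3, -0.20 to 0.31 for Rps6ka1, -0.0466 to 0.45 for Rps6ka3, -0.18 to 0.26 for Hras, -0.21 to 0.0517 for Cdk2ap2 and -0.0184 to 0.0904 for Cpeb1, and on polysomes -0.004 to 0.55 for Map2k1. The interaction was -0.56 to 0.0001 for Map2k1, -0.45 to 0.02 for Map2k2, -0.33 to -0.11 for Mapk3, -0.64 to -0.35 for Mos, -1.20 to -0.45 for Rps6ka1 and -0.16 to 0.71 for Rps6ka3. Between WT pools the change was -0.82 to -0.53 for Mos, -0.77 to -0.21 for Map2k1, -0.58 to 0.29 for Rps6ka3 and -1.24 to -1.04 for Lsm14b, and between KO pools -0.98 to -0.50 for Map2k2 and -0.17 to 0.31 for Rps6ka3. Between WT pools Rps6ka3 also changed sign with a pseudocount of 5 (0.0375) and with scaling to the same median (0.0104), as did Cdk2ap2 in RNPs with that scaling (0.0135). The cause of these changes was not tested. No pairing of libraries by replicate number was seen, with r of their deviations from group means between -0.0207 and 0.0255. Of 3 libraries 1 on polysomes and 2 in RNPs between genotypes, and 0 between pools, correlated best with their own number. A low r cannot exclude pairing, because noise of single libraries also lowers it. With the replicate block the counts were 672, 1799, 11, 1165 and 2720 in the 5 comparisons, and Lsm14b between WT pools, at -1.14, was no longer called (limma, Benjamini-Hochberg adjusted p = 0.0521); no other call of a member was lost. That call of Lsm14b was also lost without WT RNP replicate 1, 2 or 3 (0.101, 0.0705 and 0.0579). For other pathway genes 479 of 555 values kept direction and call, 68 were no longer called, 3 were newly called and 5 changed sign, and 465 of 497 list medians moved by less than the spread between replicates. At a minimum of 5 FPKM Rps6ka3 has no value in any comparison and Rps6ka1 only in the interaction. At the minimum of 1 FPKM Lsm14b has no value between genotypes with a WT library of the pool left out. With 3 libraries a group and medians of 58.1 and 92.5 estimated fragments for Rps6ka1 and Rps6ka3, differences of those genes may not be detectable at this depth.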
